A study of Mus musculus with 13 samples.

Results

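Brush border peptidases and phosphatases were followed from the intestinal stem cell to the villus through 9 genes, of 17097 measured: Anpep, Enpep, Dpp4, Mep1a, Mep1b, Ace, Mme, Alpi and Enpp3. They were taken by symbol from the annotation of the array, and each was read from the probe set that names that gene alone and has the highest mean log2 intensity over the 13 arrays. All 9 were higher in villus epithelium than in stem cells, but they were not all called at the same step. Alpi, Enpep, Mep1b, Anpep and Enpp3 were already higher in the first descendants of the stem cell, whereas Mme, Ace, Dpp4 and Mep1a were not called there and were called higher between these descendants and the villus.

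RNA had been hybridised to Affymetrix HT MG-430 PM arrays from 4 groups of Lgr5-EGFP-ires-CreERT2 mice on a C57BL/6 background, in which GFP is driven by the promoter of Lgr5, a gene of intestinal and hair follicle stem cells. The small intestine gave 4 arrays of cells sorted for bright GFP (GFPbright, the stem cells), 3 of cells sorted for dim GFP (GFPdim, their close descendants) and 3 of epithelial villus cells. A further 3 arrays hold hair follicle cells sorted for dim GFP, a second kind of Lgr5-expressing cell that makes no brush border. Every array was made from 3 mice, so animals are pooled. The age of the mice is not stated. The methods put the RNA isolation of all 4 groups after FACS, but the results name the whole villus epithelium as the source of the villus cells, and no gate is stated for them. The intestinal groups were taken from the sample titles, and the hair follicle group from the cell type label, since its titles read GFPdim as well. Titles were preferred because 1 label field gives the opposite Lgr5 level to the title for GFPbright 2, GFPdim 2 and GFPdim 3. That field also gives a high level for all villus and hair follicle arrays.

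The brush border is the layer of microvilli on the surface of the enterocyte, the absorptive cell that covers the villus. Peptides left by the proteases of stomach and pancreas are cut there by membrane-bound peptidases, which act on one end of the chain (aminopeptidases, dipeptidyl peptidases) or within it (endopeptidases), and the products are taken up by transporters in the same membrane. Phosphatases on the same surface remove phosphate from luminal substrates, and nucleotide hydrolases split extracellular nucleotides. Several of these enzymes are classical markers of enterocyte differentiation.

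Values are intensities on a linear scale, and differences are in log2 with the standard error (SE) of the limma fit to all 13 arrays. The threshold for a call was 0.05 after Benjamini-Hochberg adjustment over the 17097 genes. Genes for smell, pheromone and taste receptors (86 probe sets) were used to set a background, the receptor level, at their 95th percentile, an intensity of 7.9, and a value or group mean that did not exceed it is described as not above the receptor level. Fold changes against such a group are lower bounds, computed against the receptor level. The array median was 7.8 to 8.7, and the 75th percentile 40.6 to 52.1 except on GFPdim 1, where it was 37.6. Lgr5 had intensities of 532.8 to 793.1 in GFPbright, 12.6 to 66.1 in GFPdim, 4.8 to 6.8 in villus and 478.8 to 687.1 in hair follicle. Of 10 enterocyte markers, 8 were measured, and their summed intensity was 2204 to 3316 in GFPbright, 7810.2 to 10400 in GFPdim, 53271 to 55934 in villus and 39.5 to 47.9 in hair follicle, where none of the 8 was above the receptor level. In bulk arrays such as these, fewer cells of a type and less RNA per cell cannot be told apart.

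The start-site windows of 4 of the genes are shown because these genes mark the different courses described next: Alpi and Enpep with most of their log2 increase in GFPdim, Enpp3 with the largest increase between GFPdim and villus, and Mep1a with no increase in GFPdim. The windows are RefSeq sequence of the mouse build GRCm38.p6, each from 250 bases before the start to 50 bases after it. They lie at chr1:87101557-87101856 (Alpi), chr3:129332700-129332999 (Enpep), chr10:24836146-24836445 (Enpp3) and chr17:43502724-43503023 (Mep1a), all on the minus strand. The starts used for Alpi, Enpep and Enpp3 are the outer ends of the gene intervals given below, whereas that of Mep1a lies inside its interval. Capitals mark matches, searched on both strands, to the TATA box letters TATAAA, to the letters GATAAG bound by factors of the GATA family, to the HNF4 letters CAAAGTNCA or to the CDX letters TTTATNG.
Alpi: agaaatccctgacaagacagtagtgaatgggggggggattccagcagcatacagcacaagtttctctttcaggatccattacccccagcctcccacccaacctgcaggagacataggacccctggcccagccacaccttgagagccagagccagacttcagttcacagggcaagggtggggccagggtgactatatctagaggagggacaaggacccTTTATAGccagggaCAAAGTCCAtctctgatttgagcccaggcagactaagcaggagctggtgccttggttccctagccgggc
Enpep: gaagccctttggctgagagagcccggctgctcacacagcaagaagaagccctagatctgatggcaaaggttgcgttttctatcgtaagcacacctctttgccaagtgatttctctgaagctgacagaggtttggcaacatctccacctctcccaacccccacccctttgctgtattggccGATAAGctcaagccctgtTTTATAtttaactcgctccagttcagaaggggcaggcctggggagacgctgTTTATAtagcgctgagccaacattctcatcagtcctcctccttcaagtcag
Enpp3: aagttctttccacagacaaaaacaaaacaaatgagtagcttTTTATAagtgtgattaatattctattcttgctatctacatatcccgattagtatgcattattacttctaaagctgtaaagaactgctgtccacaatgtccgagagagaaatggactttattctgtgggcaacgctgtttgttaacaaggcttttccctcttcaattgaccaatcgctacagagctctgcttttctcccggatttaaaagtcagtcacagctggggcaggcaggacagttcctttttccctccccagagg
Mep1a: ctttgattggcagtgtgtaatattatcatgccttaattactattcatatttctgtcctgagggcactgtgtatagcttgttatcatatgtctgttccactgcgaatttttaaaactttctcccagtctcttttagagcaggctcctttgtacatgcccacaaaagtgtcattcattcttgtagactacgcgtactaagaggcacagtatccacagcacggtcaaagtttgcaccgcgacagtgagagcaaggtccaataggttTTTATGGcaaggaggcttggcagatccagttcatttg

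With the start base counted as 0, the Alpi window holds a TATAAA match at -33 to -28 that overlaps a CDX match at -33 to -27, and an HNF4 match at -19 to -11. The Enpep window has a GATA match at -70 to -65 and TATAAA matches at -52 to -47 and -1 to 4. The TATAAA match of Enpp3 lies at -209 to -204, and the CDX match of Mep1a at 13 to 19, inside the transcript. RefSeq gave 11 windows for 8 of the genes, Mep1b being the one without. TATAAA letters were found in 5 of the 11 windows, against 13.6% of all 32851 windows of this length, the others being of Dpp4 and Ace. These counts take a match anywhere in the window and on either strand. The letters were on the strand opposite to the gene in Alpi, Enpep, Enpp3 and Ace (-31 to -26), and on its own strand in Dpp4 (-227 to -222). CDX letters were in 3 of the 11, against 10.9% of all windows, the third being that of Dpp4, where they overlap the TATAAA letters. GATA letters were in 1 window (7.44% of all), HNF4 letters in 1 (1.41%) and the HNF1 letters GTTAAT in none (7.1%). A match is a description of letters, and the arrays measure neither start-site use nor binding.

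Anpep and Enpep, the aminopeptidases, increased at both steps. Anpep (Entrez 16790, chr7:79821803-79848210) encodes aminopeptidase N, which removes neutral residues from the amino end of peptides. Its intensities were 30.4, 35.6, 41.9 and 19.6 on the GFPbright arrays, 94.7, 164.2 and 108.5 on the GFPdim arrays, and 1080.5, 1249.8 and 1001.3 on the villus arrays. None of the 3 groups overlapped with another. Anpep was 3.88-fold higher in GFPdim than in GFPbright (log2 difference 1.96, SE 0.25, adjusted p = 0.000102) and 9.29-fold higher in villus than in GFPdim (3.22, SE 0.27, adjusted p = 2.46e-07). Enpep (Entrez 13809, chr3:129269177-129332749) encodes aminopeptidase A, which removes acidic residues and also acts on angiotensin II. It had 14.3, 29.5, 52.2 and 21.4 in GFPbright, 428.2, 674.7 and 838.5 in GFPdim, and 3486.7, 3620.0 and 3034.4 in villus. Again the groups were separate, and here the first step was the larger: Enpep was 23.8-fold higher in GFPdim than in GFPbright (4.57, SE 0.34, adjusted p = 7.48e-07) and 5.41-fold higher in villus than in GFPdim (2.43, SE 0.36, adjusted p = 7.48e-05).

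The enzymes that release dipeptides, Dpp4 and Ace, were not called between GFPdim and GFPbright and were called higher in villus than in GFPdim. Dpp4 (Entrez 13482, chr2:62330073-62412315) encodes dipeptidyl peptidase 4, which takes dipeptides from the amino end after proline or alanine and inactivates incretin hormones. Its intensities were 358.5, 320.5, 292.0 and 268.7 in GFPbright, 311.6, 246.0 and 283.7 in GFPdim, and 2787.3, 2766.3 and 2869.0 in villus. Stem cells thus carried a clear Dpp4 signal, with GFPdim overlapping GFPbright (log2 difference -0.14, SE 0.17, not called, adjusted p = 0.675), and villus was 10.1-fold higher than GFPdim (3.33, SE 0.18, adjusted p = 4.39e-09). A second Dpp4 probe set read 40.4, 29.0, 32.3 and 25.2 in GFPbright, 18.6, 18.8 and 21.6 in GFPdim, and 203.6, 189.8 and 246.9 in villus. On that probe set GFPdim lay below GFPbright without overlap, and with the mean of both probe sets the difference was -0.41 with an adjusted p of 0.0479. Dpp4 is also a surface antigen of T lymphocytes (CD26). Of 9 T lymphocyte markers, 8 were above the receptor level in villus, with a summed intensity of 1741.4 to 2521.6, against 50.4 to 67.5 in GFPdim and 52.9 to 70.7 in GFPbright. Their part in the villus level of Dpp4 was not tested.

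Ace (Entrez 11421, chr11:105967948-105989964) encodes angiotensin-converting enzyme, which takes dipeptides from the carboxyl end. It read 6.1, 4.8, 4.3 and 4.7 in GFPbright and 5.9, 6.9 and 6.8 in GFPdim, none of them above the receptor level, and 147.6, 173.7 and 231.0 in villus. No fold can be given between GFPdim and GFPbright (log2 difference 0.40, SE 0.16, adjusted p = 0.111). In villus Ace was at least 22.9-fold higher than in GFPdim (4.80, SE 0.17, adjusted p = 1.34e-10). Since Ace is made by endothelium too, 7 endothelial and mural cell markers were read: 3 were above the receptor level in villus, where their sum was 44.9 to 428.2, against 37.9 to 67.0 in GFPdim. Those above it by group mean were Tek (on 1 of 3 villus arrays), Rgs5 (on 2) and Acta2 (on 3), while Pecam1, Cdh5, Kdr and Pdgfrb were not. The part of such cells in the villus level of Ace was not tested.

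Of the endopeptidases Mme, Mep1a and Mep1b, the last alone was called at both steps. Mep1a and Mep1b encode the alpha and beta subunits of meprin, a zinc metalloprotease of the astacin family in which the beta subunit carries the membrane anchor. Mep1b (Entrez 17288, chr18:21072344-21100199) had 33.8, 31.3, 24.8 and 30.4 in GFPbright, 256.4, 361.8 and 439.3 in GFPdim, and 6975.3, 6540.8 and 5626.5 in villus. It was 11.5-fold higher in GFPdim than in GFPbright (log2 difference 3.53, SE 0.23, adjusted p = 1.93e-07) and 18.5-fold higher in villus than in GFPdim (4.21, SE 0.25, adjusted p = 9.01e-09). Mep1a (Entrez 17287, chr17:43474324-43504143) had 92.0, 72.7, 108.0 and 98.9 in GFPbright, 50.5, 97.4 and 59.4 in GFPdim, and 581.8, 503.2 and 794.1 in villus. At the first step Mep1a, unlike Mep1b, was not called (-0.47, SE 0.23, adjusted p = 0.194), and without GFPdim 2, the one GFPdim array within the range of GFPbright, it was called lower in GFPdim (-0.75, adjusted p = 0.0274). At the second step Mep1a was 9.27-fold higher in villus than in GFPdim (3.21, SE 0.24, adjusted p = 1.03e-07).

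Mme (Entrez 17380, chr3:63295211-63383713) encodes neprilysin, which cuts peptides within the chain on the amino side of hydrophobic residues. Its intensities were 9.8, 7.1, 7.4 and 15.8 in GFPbright, 10.1, 15.2 and 26.3 in GFPdim, and 613.8, 692.6 and 852.9 in villus. GFPbright and GFPdim overlapped close to the receptor level, and the difference of 0.75 (SE 0.31) was not called (adjusted p = 0.121). It was called without GFPbright 4, the highest GFPbright array (0.99, adjusted p = 0.033), and without GFPdim 1, the lowest GFPdim array (1.07, adjusted p = 0.0319). From GFPdim to villus the change was 44.8-fold (5.48, SE 0.33, adjusted p = 1.09e-08).

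Alpi and Enpp3 encode the phosphatase and the nucleotide hydrolase among the 9 genes. Alpi (Entrez 76768, chr1:87098002-87101606) is an intestinal alkaline phosphatase, which also dephosphorylates bacterial lipopolysaccharide. It read 12.2, 38.8, 31.6 and 24.1 in GFPbright, 583.5, 1020.0 and 1240.0 in GFPdim, and 6804.0, 7291.1 and 7127.0 in villus. Alpi had the largest first step of the 9 genes, 36.9-fold higher in GFPdim than in GFPbright (log2 difference 5.20, SE 0.33, adjusted p = 1.44e-07), and was 7.83-fold higher in villus than in GFPdim (2.97, SE 0.35, adjusted p = 7.81e-06). Enpp3 (Entrez 209558, chr10:24773814-24836195) encodes a surface pyrophosphatase and phosphodiesterase of extracellular nucleotides. It had 5.1, 5.1, 5.1 and 4.9 in GFPbright, which is not above the receptor level, 10.8, 25.0 and 16 in GFPdim, and 2400.6, 2928.3 and 2861.6 in villus. The first step was small and called, at least 2.06-fold (1.69, SE 0.21, adjusted p = 8.94e-05), and the second step was the largest of the 9 genes, 167-fold higher in villus than in GFPdim (7.38, SE 0.23, adjusted p = 3.44e-11). Of the other 3 Enpp3 probe sets, one read 7.0, 5.1, 5.8 and 5.3 in GFPbright, 10.9, 12.5 and 7.7 in GFPdim, and 2625.4, 2886.1 and 2465.3 in villus. Its GFPdim values lay above GFPbright without overlap, though 7.7 is not above the receptor level. Another read 4.7, 3.5, 4.3 and 3.5 in GFPbright, overlapping 4.3, 4.5 and 5.7 in GFPdim, all below the receptor level. In villus that probe set read 82.0, 84.6 and 62.8. The last stayed at 4.3 to 7.1 on all 13 arrays, below the receptor level.

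**Figure D1:**
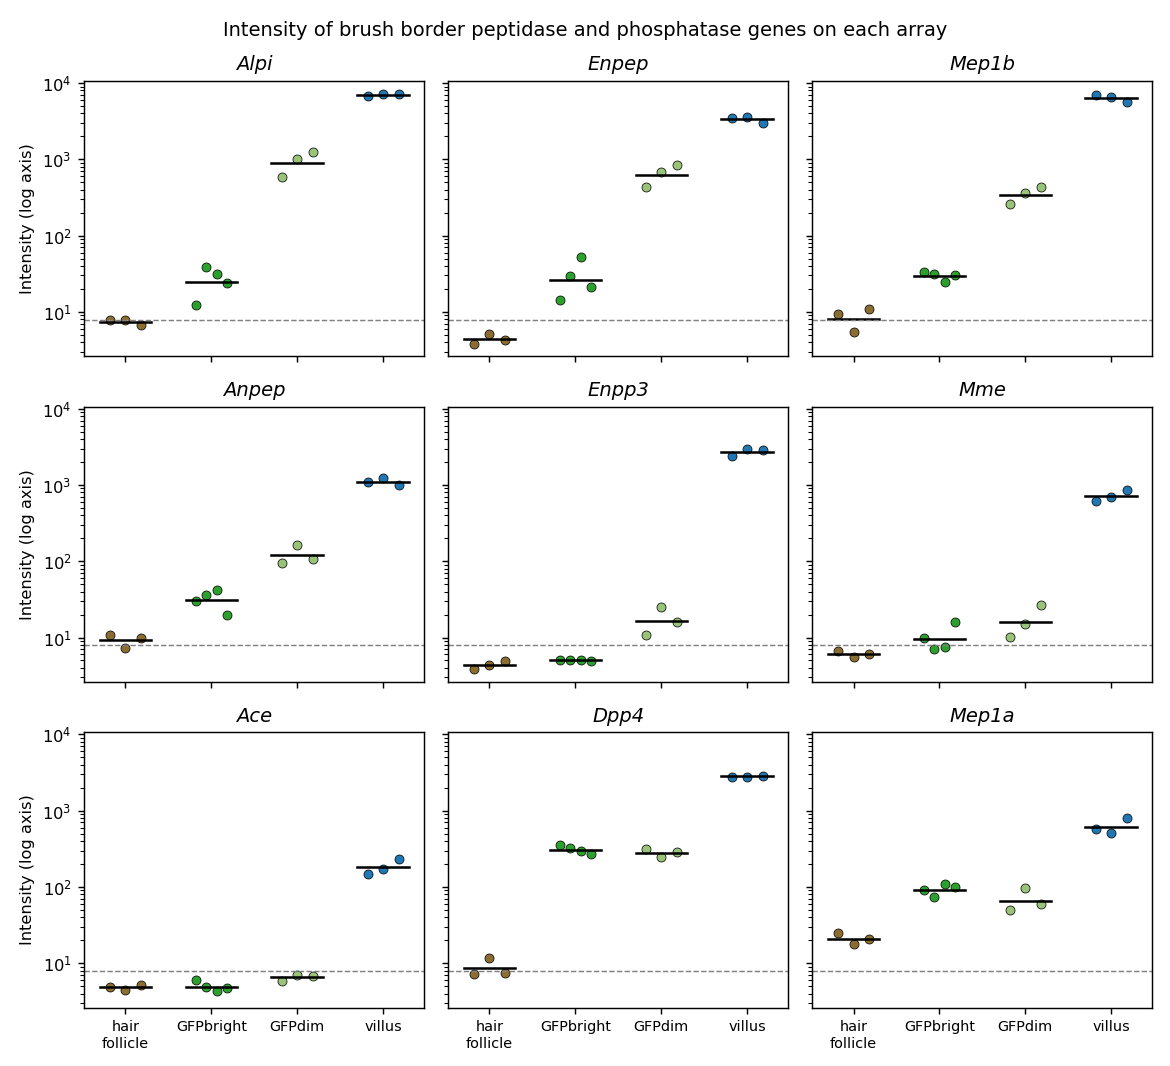
Intensity (log axis) of the 9 genes on each of the 13 arrays, by group from left to right hair follicle, GFPbright, GFPdim and villus. Points are arrays, black bars the mean of the log2 values and the dashed line the receptor level of 7.9. All 9 genes are highest in villus, and Alpi, Enpep, Mep1b, Anpep and Enpp3 have GFPdim arrays that all lie above their GFPbright arrays.

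Across the first step, from GFPbright to GFPdim, 5 of the 9 genes were called, all higher in GFPdim, where 6.32% of all genes were. The same 5 had GFPdim arrays that all lay above the GFPbright arrays, as did 9.28% of all genes. The median log2 difference of the 9 genes was 1.69, against -0.04 over all genes. GFPdim 1, the array with the lowest 75th percentile, was the lowest GFPdim array for 8 of the 9 genes and the highest for Dpp4. Between GFPdim and villus all 9 were called higher in villus, where 20.8% of all genes were, with a median of 3.33 against 0.02. From GFPbright to villus all 9 were again called higher in villus, where 22.6% of all genes were, with a median of 6.23 against 0.02. Over that whole course the differences went from 2.74 (SE 0.23, adjusted p = 1.31e-07, 6.69-fold) for Mep1a and 3.19 (SE 0.17, adjusted p = 1.36e-09, 9.11-fold) for Dpp4, the genes with the strongest signal relative to villus in stem cells, to 8.17 (SE 0.33, adjusted p = 9.71e-11, 288.6-fold) for Alpi and 9.07 (SE 0.21, adjusted p = 1.84e-12, at least 344.3-fold) for Enpp3.

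Whether the 2 steps differed in size was tested per gene as the second difference minus the first. The second step was larger for Enpp3 (5.69, SE 0.38, adjusted p = 2.87e-07), Mme (4.74, SE 0.55, adjusted p = 3.2e-05), Ace (4.39, SE 0.29, adjusted p = 2.56e-07), Mep1a (3.68, SE 0.41, adjusted p = 2.08e-05) and Dpp4 (3.47, SE 0.31, adjusted p = 2.55e-06), so 5 of 9 where 12.3% of all genes were called in that direction. The sizes for Enpp3 and Ace include groups not above the receptor level. The first step was larger for Alpi (-2.24, SE 0.59, adjusted p = 0.0133) and Enpep (-2.14, SE 0.62, adjusted p = 0.0216), 2 of 9 where 11.2% of all genes were. Both of these calls were lost without either of 2 arrays: without GFPdim 2 the differences were -2.06 (adjusted p = 0.0568) for Alpi and -2.02 (adjusted p = 0.0752) for Enpep, and without GFPdim 3 they were -1.78 (adjusted p = 0.0845) for Alpi and -1.71 (adjusted p = 0.118) for Enpep. Anpep (1.26, SE 0.45, adjusted p = 0.0586) and Mep1b (0.68, SE 0.42, adjusted p = 0.287) were not called. Anpep was called without GFPbright 4 (1.48, adjusted p = 0.0128) and without GFPdim 2 (1.72, adjusted p = 0.0213).

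**Figure D2:**
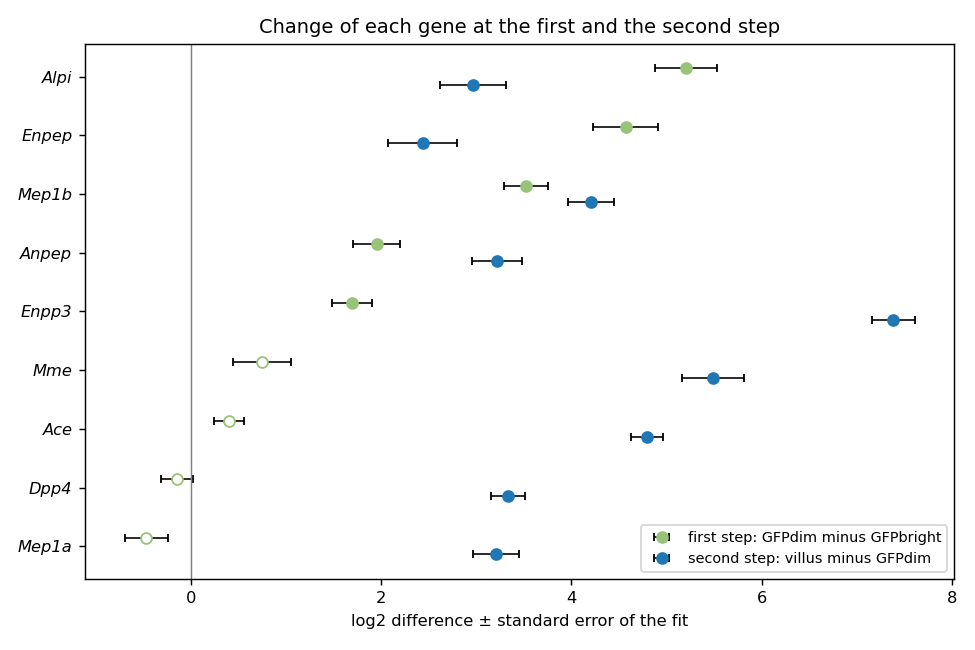
The log2 difference of each gene at the first step (GFPdim minus GFPbright, light green) and the second (villus minus GFPdim, blue), with the SE of the limma fit as bars. Filled points passed an adjusted p of 0.05. Ace in both GFP groups and Enpp3 in GFPbright were not above the receptor level. The genes are ordered by the first step, from 5.20 for Alpi to -0.47 for Mep1a, while all second steps lie between 2.43 for Enpep and 7.38 for Enpp3.

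In the order of the first step, Alpi, Enpep, Mep1b, Anpep, Enpp3, Mme, Ace, Dpp4 and Mep1a, each gene was compared with the next by the log2 ratio of the pair on each array. The pairs are neighbours by the same values that are compared, and with 4 GFPbright and 3 GFPdim arrays an exact two-sided permutation test cannot give a p below 0.0571, so the order is a description. The 4 pairs that hold Ace or Enpp3 rest on levels not above the receptor level and give no order. Of the other 4, the ratios of Alpi over Enpep (0.632 on the log2 scale, SE 0.25) and of Mep1b over Anpep (1.57, SE 0.39) did not overlap between GFPdim and GFPbright, at the smallest exact p of 0.0571 (0.152 adjusted over the 8 pairs). The ratios overlapped for Enpep over Mep1b (1.05, SE 0.488, exact p = 0.229) and Dpp4 over Mep1a (0.328, SE 0.424, exact p = 0.4), which does not show that these genes are alike.

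The level in GFPdim relative to the villus level of the same probe set gave a further view of onset. Enpep had reached 12.7%, 20.0% and 24.8% of its mean villus intensity on the GFPdim arrays, Alpi 8.25%, 14.4% and 17.5%, and Anpep 8.53%, 14.8% and 9.77%. For these genes the mean was 19.1%, 13.4% and 11.0%, and their GFPbright arrays averaged 0.868%, 0.377% and 2.87%. Mep1a and Dpp4 were at a like level in GFPdim, 11.0% and 9.99%, but had already 14.8% and 11.0% in GFPbright. Mep1b reached 5.52% in GFPdim, against 0.471% in GFPbright. Enpp3 was at 0.632% in GFPdim, the lowest share of the 9 genes as read, and Mme at 2.39%. The 3.55% of Ace is a value below the receptor level, so the place of Ace in this order is not known. Markers of the enterocyte ran in GFPdim from 2.99% for Apob and 3.11% for Apoa4, apolipoproteins of lipid export, to 21.6% for Vil1, a microvillus protein, 26.1% for Fabp1 and 40.1% for Fabp2, both fatty acid binding proteins. On the log2 scale, Enpep had 65.3% and Alpi 63.7% of their increase to villus in GFPdim, Mep1b 45.6% and Anpep 37.8%.

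**Figure D3:**
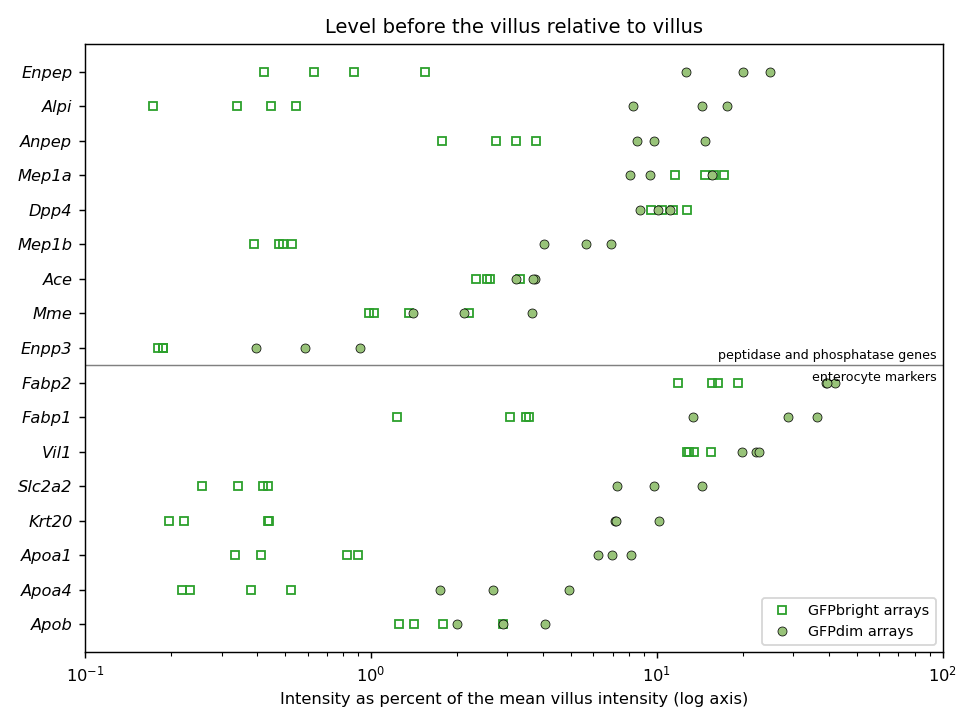
Intensity of each gene as percent of its mean villus intensity (log axis) on the GFPbright arrays (open squares) and GFPdim arrays (filled circles), for the 9 peptidase and phosphatase genes and 8 enterocyte markers. Enpep reaches 12.7% to 24.8% of villus in GFPdim and Enpp3 stays under 1%, while no GFPdim point of Mep1a or Dpp4 lies above the highest GFPbright point of that gene.

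Other lineages also differed between these groups. Goblet cell markers (5 of 5 above the receptor level) summed to 1044.9 to 2320.1 in GFPbright, 21488 to 23961 in GFPdim and 22348 to 23783 in villus. Behind the similar sums of GFPdim and villus, Agr2, Fcgbp and Tff3 had lower means in villus, and Clca1 and Zg16 higher means. The mean of Agr2 was 3189.3 in GFPdim and 796.4 in villus, and that of Zg16 6304.3 and 9020.4. Enteroendocrine markers were highest in GFPdim, 4125.4 to 5210.4 against 135.8 to 265.8 in GFPbright, and 1331.2 to 2008.6 in villus. Of 4 Paneth cell markers 3 were measured. Their sum too was highest in GFPdim, 5024.8 to 9239.9 against 711.4 to 1438.2 in GFPbright, and 278.2 to 393.2 in villus. Itln1 made the largest part (mean 5574.4 in GFPdim), and Mmp7 was also highest there (1030.3 against 102.5 in GFPbright). Lyz1 overlapped, with 12.3 to 51.6 in GFPdim and 13.3 to 24.6 in GFPbright. GFPdim therefore held RNA of several lineages beside the enterocyte, and the part of each in the levels of the 9 genes was not tested.

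Hair follicle cells served as the outgroup, and their identity was read from 7 keratinocyte markers, all above the receptor level there with a sum of 16979 to 20910, against 251.8 to 363.3 in GFPbright. By group mean, 6 of 6 melanocyte markers (sum 736.7 to 948.6) and 4 of 7 fibroblast markers (179.5 to 408.9) were also above the receptor level. Of the melanocyte markers, Mitf (mean 505.7) and Dct (217.5) were strongest, and Mlana exceeded the level on 1 of 3 hair follicle arrays. Kit went the other way, with a mean of 9.7 in hair follicle, 20.3 in GFPbright and 52.9 in GFPdim. The part of these cells in the levels of the 9 genes was not tested. Enpep, Ace, Mme, Alpi and Enpp3 were not above the receptor level on any hair follicle array. Anpep read 10.7, 7.3 and 9.8 in hair follicle, Dpp4 7.2, 11.8 and 7.5, and Mep1b 9.3, 5.4 and 10.8, all close to the receptor level. Mep1a alone exceeded it on all 3 hair follicle arrays, with 24.6, 18 and 21.0.

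Set against GFPbright, 6 of the 9 genes were called lower in hair follicle, where 29.1% of all genes were, and 7 had hair follicle arrays that all lay below the GFPbright arrays, as did 31.1% of all genes. Dpp4 stood apart, 35.8-fold lower in hair follicle than in GFPbright (log2 difference -5.16, SE 0.17, adjusted p = 6.84e-12). Mep1a was 4.37-fold lower (-2.13, SE 0.23, adjusted p = 1.95e-06), Mep1b 3.66-fold lower (-1.87, SE 0.23, adjusted p = 7.9e-06) and Anpep 3.36-fold lower (-1.75, SE 0.25, adjusted p = 3.37e-05). Enpep was at least 3.32-fold lower (-2.58, SE 0.34, adjusted p = 1.66e-05) and Alpi at least 3.10-fold lower (-1.72, SE 0.33, adjusted p = 0.000454). All 6 were above the receptor level on every GFPbright array. GFPbright also had 7 of 8 enterocyte markers above the receptor level, and their part in these signals was not tested. Mme (-0.66, SE 0.31, adjusted p = 0.095) did not overlap but was not called, and Ace and Enpp3 were not above the receptor level in either group. Against villus all 9 were called lower in hair follicle, where 27.4% of all genes were, with log2 differences from -4.87 for Mep1a (29.2-fold) to -9.89 for Alpi (at least 895.1-fold) and adjusted p values from 9.49e-14 to 3.93e-10. Those comparisons use the same GFPbright and villus arrays as the steps above. The median of the 9 genes was -1.75 against GFPbright, where all genes had -0.06, and -8.35 against villus, where all genes had -0.04.

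Over the 13 arrays each gene was set against the mean of the other 8. Pearson's r was lowest for Dpp4 (0.8535) and highest for Anpep (0.9908), a description over arrays that fall into 4 groups. Over the 10 intestinal arrays alone it was lowest for Mep1a (0.8627) and highest for Anpep (0.9876), with Dpp4 at 0.9159. The genes outside the list whose log2 values were most like the mean of the 9 were Apoc3 (r = 0.9954), Apoa4 (0.9952), Ccdc68 (0.9946), Cyp3a25 (0.9942), Cgref1 (0.9938), Tmem106a (0.9937), Metrnl (0.9933) and Slc31a1 (0.9924). Apoc3, an apolipoprotein, had intensities of 45.6 ± 16.5 in GFPbright (SD, n = 4), 283.8 ± 21.2 in GFPdim and 9906 ± 391 in villus (SD, n = 3 each). For Slc31a1, the copper transporter, these were 101.1 ± 12.5, 161.0 ± 19.1 and 990.6 ± 52.1.

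Further enzymes of the same surface were read from a list of 8 other surface peptidases, of which 5 were measured. In villus 3 of the 5 were called higher than in GFPbright and none lower, where 22.6% of all genes were higher and 26.3% lower, with a median log2 difference of 4.13 against 0.02 over all genes. Dpep1, a dipeptidase of the microvillus, was at least 213.3-fold higher (8.12, SE 0.23, adjusted p = 5.91e-12), Tmprss15, the enteropeptidase that activates trypsinogen, at least 28.5-fold (5.71, SE 0.14, adjusted p = 2.25e-12) and Xpnpep2, a membrane aminopeptidase that cuts before proline, at least 13.4-fold (4.13, SE 0.17, adjusted p = 1.3e-10). Of the 5, Dpep1 alone was called between GFPdim and GFPbright, at least 4.40-fold higher in GFPdim (2.52, SE 0.23, adjusted p = 4.3e-06).

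Of 14 other surface phosphatases and nucleotide hydrolases, 9 were measured. In villus 4 were called higher than in GFPbright and 1 lower, beside 22.6% and 26.3% of all genes, with a median of 0.17. Akp3, an alkaline phosphatase related to Alpi, read 358.0 ± 115.8 in villus (SD, n = 3) and 6.30 ± 0.37 in GFPbright (SD, n = 4), at least 43.5-fold higher (5.77, SE 0.20, adjusted p = 3.41e-11). It was not called between GFPdim and GFPbright (adjusted p = 0.119), where GFPbright was not above the receptor level. Probes of such related genes can share signal, and this was not tested. Nt5e, the ecto-nucleotidase that forms adenosine from AMP, was at least 117-fold higher in villus (7.60, SE 0.13, adjusted p = 1.22e-13), and Entpd8, which hydrolyses nucleoside triphosphates, was higher by 2.73 on the log2 scale (SE 0.13, adjusted p = 5.59e-10). Enpp4, a relative of Enpp3, was lower in villus (-0.88, SE 0.24, adjusted p = 0.00718). In the outgroup Nt5e was high, with 824.4 ± 97.9 in hair follicle (SD, n = 3) and 4.75 ± 0.19 in GFPbright (SD, n = 4).

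Of 20 relatives in the peptidase families of the 9 genes, 19 were measured. In villus 5 were called higher and 4 lower than in GFPbright, with a median of 0.01, which is near the 22.6% higher and 26.3% lower of all genes and no result about this list. Those named by size were Ece2, an endothelin-converting enzyme of the neprilysin family (-2.80, SE 0.16, adjusted p = 2.96e-09), Fap, a relative of Dpp4 known from activated fibroblasts (2.20, SE 0.23, adjusted p = 1.29e-06, at least 3.07-fold), Bmp1, an astacin protease like the meprins (2.16, SE 0.18, adjusted p = 1.09e-07), and Dpp8, a cytosolic relative of Dpp4 (-0.56, SE 0.15, adjusted p = 0.00664). Of 7 fibroblast markers, 3 were above the receptor level in villus by group mean, Col3a1, Dcn and Vim, whereas Col1a1, Col1a2, Lum and Pdgfra were not. The sum of the 7 was 60.3 to 121.4 in villus, 37.2 to 51.5 in GFPbright and 124.4 to 214.1 in GFPdim. In GFPdim only Vim was above the level, with a mean of 137.9 against 41.5 in villus. The part of such cells in the villus level of Fap was not tested.

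Peptidases of the cytosol and lysosome, which finish the digestion of peptides inside cells, were called higher in villus in 5 of 14 cases and lower in 5, beside 22.6% and 26.3% of all genes, with a median of -0.02. Pepd, the prolidase (4.03, SE 0.14, adjusted p = 2.29e-11), Cndp2, a cytosolic dipeptidase (3.95, SE 0.28, adjusted p = 2.83e-08), and Xpnpep1, the cytosolic aminopeptidase P (2.83, SE 0.22, adjusted p = 8.16e-08), were higher, whereas Thop1 (-2.47, SE 0.31, adjusted p = 1.03e-05, at least 4.86-fold, villus not being above the receptor level) and Blmh (-1.83, SE 0.20, adjusted p = 2.28e-06) were lower. The first 3 were also called higher in GFPdim than in GFPbright, and no other gene of the list was, beside 6.32% of all genes.

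Peptide and amino acid transporters of the enterocyte were called higher in villus than in GFPbright in 9 of 10 cases, with a median of 4.12, and 7 of the 10 were already called higher in GFPdim. Of all genes, 22.6% were higher in villus and 6.32% in GFPdim. Slc6a19, the main transporter of neutral amino acids, was at least 251-fold higher in villus (8.36, SE 0.24, adjusted p = 6.85e-12), Slc15a1, the peptide transporter PEPT1, at least 121.7-fold (7.30, SE 0.20, adjusted p = 4.54e-12) and Slc6a20a, a proline transporter, 7.29 on the log2 scale (SE 0.26, adjusted p = 3.03e-11). In GFPdim, Slc6a19 was at least 4.21-fold and Slc15a1 at least 1.79-fold higher than in GFPbright, and Slc6a20a was higher by 4.27 on the log2 scale (SE 0.26). Slc1a1, a glutamate transporter, was the one lower in villus (-2.03, SE 0.25, adjusted p = 6.92e-06).

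**Figure D4:**
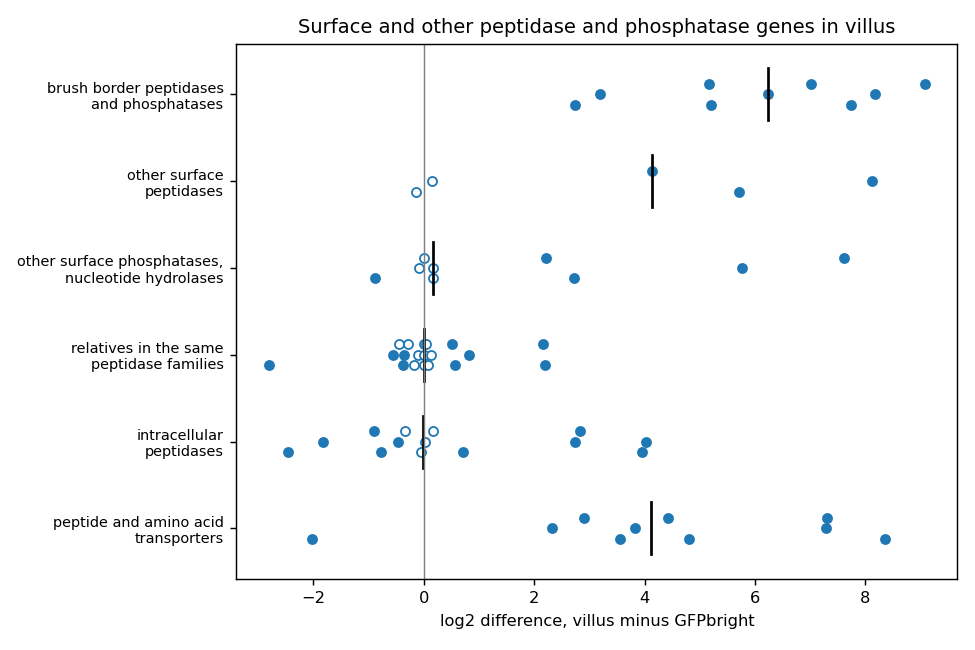
The log2 difference of villus minus GFPbright for each measured gene of the 9 brush border genes and of the 5 related lists. Filled points passed an adjusted p of 0.05 and black bars are list medians, which run from 6.23 for the 9 genes and 4.13 and 4.12 for other surface peptidases and transporters to -0.02 for intracellular peptidases.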

How the data were processed

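RNA of cells freed from crypts, villi or skin was hybridised by the authors to HT MG-430 PM arrays. The authors deposited linear intensities from RMA-sketch in Affymetrix Power Tools (version not given in the sources used here). That procedure subtracts background, brings the arrays to 1 scale and summarises each probe set, which compresses low values. The log2 of these intensities was used without renormalizing. Of 45141 probe sets, 28898 named 1 gene, 551 several and 15692 none, and for 28689 of the single-gene probe sets the gene identifier was found in RefSeq (GRCm38.p6). Each of 17097 genes was read from its brightest such probe set.

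Comparisons used limma 3.58.1 (R 4.3.3) fitted to all 13 arrays, tested on simulated data first, with Benjamini-Hochberg adjustment. The number of arrays limits the precision, and p-values measure only the spread between pools of mice. In 3 cases a GFPbright and a GFPdim array share a code in their titles, which do not say what it stands for. The residuals of these pairs correlated at 0.291, 0.451 and 0.320, so the code was also fitted as a block, taken as a sort. Hair follicle 2 carries the code of GFPbright 3 and GFPdim 2. Alternatives were an offset, quantile normalization, fewer arrays, variance and weight models, probe set rules, a filter and leaving out each array. Named genes are the 9 members; up to 3 genes per list with the largest called villus minus GFPbright difference and up to 2 called the other way; and the 8 genes most like the members. Members and lists were chosen with earlier results of these data known. Figures were drawn with matplotlib 3.10.9.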

Additional observations from a re-analysis of the deposited data

Results flagged for a closer look

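For Enpp3 in GFPbright, 1 array lay apart from the other 3: the intensities were 5.1, 5.1, 5.1 and 4.9, and on the log2 scale the gap of the lowest to the nearest array was 1.0 of the range of the group. All 4 values were under the receptor level of 7.9. For normally distributed values, chance alone would set about 1 in 20 groups of this size apart in this way. That rate does not hold here, because 3 of the 4 values are equal as given to 1 decimal. The same rule was applied to each of the 9 genes in GFPbright, and to no other group.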

How the results depend on the processing

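The number of the 9 genes called stayed within 1.5 times its value in each comparison under all alternatives run: 5 to 6 between GFPdim and GFPbright, 6 to 7 between hair follicle and GFPbright, and 9 between villus and GFPdim, villus and GFPbright, and hair follicle and villus. The difference between steps was called for 7 genes, for 5 to 8 with an array left out and for 9 with 16 added before the log2. No direction of a called value reversed. With the title code as a block, pairing GFPdim with GFPbright, Alpi was 5.43 and 5 genes were called, with no call of the 9 changed. Of the single-gene tests, 1178 kept their call, 12 gained and 4 lost it. The 4 lost are those of Alpi and Enpep given above. The gains not yet given were Anpep and Mep1b in the difference between steps with 16 added (1.53 and 1.17), Anpep there also with array weights (adjusted p = 0.0388) or a filter on dim genes (adjusted p = 0.0426), Mme in GFPdim with array weights (1.04, adjusted p = 0.0135), and Mme in hair follicle without GFPdim 3 (adjusted p = 0.0477). With the receptor level subtracted, the share of the villus level in GFPdim was 0 for Ace, against 3.55%, and 0.344% for Enpp3, against 0.632%. For Mme it was 1.31%, against 2.39%. Testing every probe set in place of 1 per gene raised the count of calls to 11025 for villus against GFPdim (7202 genes), 13064 for villus against GFPbright (8361), 12812 for hair follicle against GFPbright (8301) and 14552 for hair follicle against villus (9292), since more units were tested. Levels at or under 7.9 limit Ace in GFPbright and GFPdim, Enpp3 in GFPbright and Mme on 2 GFPbright arrays.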
